A study of Homo sapiens with 6 samples.

Results

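The genes for 6 surface receptors of myeloid cells were followed through the H3K4me3 and H3K27me3 peak lists of HL-60 cells: CSF1R, CSF3R, CSF2RB, CXCR2, CXCR4 and FPR1. They were chosen by name, with earlier results of these data known, as the lines of the 4 deposited lists that carry these gene symbols. They are 6 of the 18086 gene symbols found in any list. Shares over all genes below are thus a scale for genes not picked blindly. HL-60 is a human promyelocytic leukaemia line, labelled myeloblast here. JMJD3 KO and parental HL-60 cells, both grown in DMEM with serum and with no inducer named, were compared by chromatin immunoprecipitation and sequencing, with 1 library per genotype and mark. The labels do not say how the knockout was made or whether the line is 1 clone, so genotype and clone cannot be told apart. With 1 library per group, no difference below has a replicate check, no p-value is given, and the sequencing depth is unknown because the lists hold peaks and no read counts.

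H3K4me3 is a methyl mark on histone H3 found around the starts of active or poised genes, and H3K27me3 is the mark of Polycomb repression. JMJD3, the product of KDM6B, removes methyl groups from H3K27. The receptors fall into growth factor receptors and chemoattractant receptors. CSF1R is the tyrosine kinase that binds macrophage colony-stimulating factor and IL-34, CSF3R is the receptor for granulocyte colony-stimulating factor, and CSF2RB is the common beta chain shared by the receptors for GM-CSF, IL-3 and IL-5. CXCR2 binds CXCL8 and related neutrophil chemokines, CXCR4 binds CXCL12 and holds myeloid cells in the bone marrow, and FPR1 recognises formylated bacterial peptides.

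The stretches upstream of the receptor gene starts are shown because they differ in CpG content, a sequence feature that promoter H3K4me3 is known to follow. Each is the 250 bases before an annotated start, from RefSeq on GRCh38.p14, written 5′ to 3′ on the gene's own strand with every CpG in capitals. CXCR4 is given at its outermost start (chr2:136118150-136118399, minus strand), CSF3R at its outermost start (chr1:36483315-36483564, minus strand) and CSF1R at its inner start (chr5:150086555-150086804, minus strand). CXCR2 (chr2:218125778-218126027, plus strand) and FPR1 (chr19:51751879-51752128, minus strand) are given at the only start this source holds for each.
CXCR4: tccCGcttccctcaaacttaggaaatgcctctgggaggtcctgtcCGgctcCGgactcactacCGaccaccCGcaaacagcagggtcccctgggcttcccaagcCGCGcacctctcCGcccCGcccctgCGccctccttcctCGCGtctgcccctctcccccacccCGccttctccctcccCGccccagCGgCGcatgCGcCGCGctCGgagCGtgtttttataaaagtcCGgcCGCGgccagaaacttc
CSF3R: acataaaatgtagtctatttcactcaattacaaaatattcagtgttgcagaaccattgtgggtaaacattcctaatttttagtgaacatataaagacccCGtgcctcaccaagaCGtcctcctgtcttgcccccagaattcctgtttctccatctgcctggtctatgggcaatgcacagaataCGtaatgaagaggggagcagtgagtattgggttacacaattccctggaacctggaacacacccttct
CSF1R: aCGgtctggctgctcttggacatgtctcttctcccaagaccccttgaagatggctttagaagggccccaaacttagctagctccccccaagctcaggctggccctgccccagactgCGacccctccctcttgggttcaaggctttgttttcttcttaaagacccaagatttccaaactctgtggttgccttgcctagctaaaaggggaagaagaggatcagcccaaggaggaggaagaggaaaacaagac
CXCR2: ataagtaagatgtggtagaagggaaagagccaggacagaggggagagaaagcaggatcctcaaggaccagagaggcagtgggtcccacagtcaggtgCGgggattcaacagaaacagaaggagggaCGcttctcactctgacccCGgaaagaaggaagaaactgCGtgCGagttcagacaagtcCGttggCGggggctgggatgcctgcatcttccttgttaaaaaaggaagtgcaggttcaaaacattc
FPR1: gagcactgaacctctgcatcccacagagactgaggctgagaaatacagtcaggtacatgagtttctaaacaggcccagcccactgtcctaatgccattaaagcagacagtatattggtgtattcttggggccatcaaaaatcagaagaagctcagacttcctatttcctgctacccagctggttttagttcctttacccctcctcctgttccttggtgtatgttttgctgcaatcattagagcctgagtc

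The CXCR4 stretch held 24 CpGs, more than 76.3% of the 35116 promoters of the same length in the table, and FPR1 held 0. CSF3R had 3, CSF1R 2 and CXCR2 7, against a median of 11 over all promoters. The starts not shown had 12 and 8 CpGs at CXCR4, 8 at CSF3R and 6 at CSF1R. Of the 6 genes, 5 had entries in the table. The inner CSF1R start lies 26811 bp downstream of the outer one; the outer start is known as the trophoblast promoter and the inner one as the macrophage promoter. These positions are on GRCh38 and the peaks below on hg19, and no position was carried from one build to the other. Which of the 2 CXCR2 starts named below on hg19 the CXCR2 stretch precedes was therefore not determined.

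Short motifs were looked for on both strands of all CXCR4, CSF3R, CSF1R, CXCR2 and FPR1 entries. The core of PU.1 sites, GAGGAA, occurs in 23.6% of all promoters of this length. It was found side by side at 20 and 14 bases upstream of the inner CSF1R start, at 111 bases upstream of the inner CSF3R start, which lies 401 bp downstream of the outer one, at 113 bases upstream of the outermost CXCR4 start and at 24 bases upstream of the innermost one, 1914 bp further downstream. The GC box GGGCGG, in 42.6% of all promoters, was found 3 times in the outermost CXCR4 stretch, with 2 of the copies sharing a base, once upstream of the innermost CXCR4 start and once upstream of the outer CSF1R start. TATAAA, in 10.7%, was found at 30 and, on the other strand, at 32 bases upstream of the outermost CXCR4 start, the 2 matches overlapping, and at 162 bases upstream of the outermost CSF3R start. The C/EBP motif TTGCNNAA, present in 9.05%, was found once, 206 bases upstream of the outermost CSF3R start. The FPR1 and CXCR2 stretches held none of these letters.

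H3K4me3 lay near 5 of the 6 receptors in each genotype, but not the same 5. In at least 1 of the 2 lists, 86.3% of all symbols had such a peak. Every receptor has a line in some list and none has H3K27me3, so each was bound to have H3K4me3 in at least 1 genotype. That all 6 are marked is therefore not a result about them. CSF3R, CSF2RB, CXCR2 and CXCR4 had at least 1 peak centred within 20 kb of a transcript start in both lists. CSF1R had one in the knockout list alone and FPR1 in the parental list alone. Among the 15614 genes with an H3K4me3 peak in either list, 1.49% were listed in knockout cells only, 12.5% in parental cells only and 86.0% in both. H3K27me3 was listed within 20 kb of none of the 6 receptors in either genotype; 18.2% of all symbols had an H3K27me3 peak in at least 1 list. The titles name these libraries H3K27me3 while their antibody label names H3K4me3; the title was followed.

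**Figure D1:**
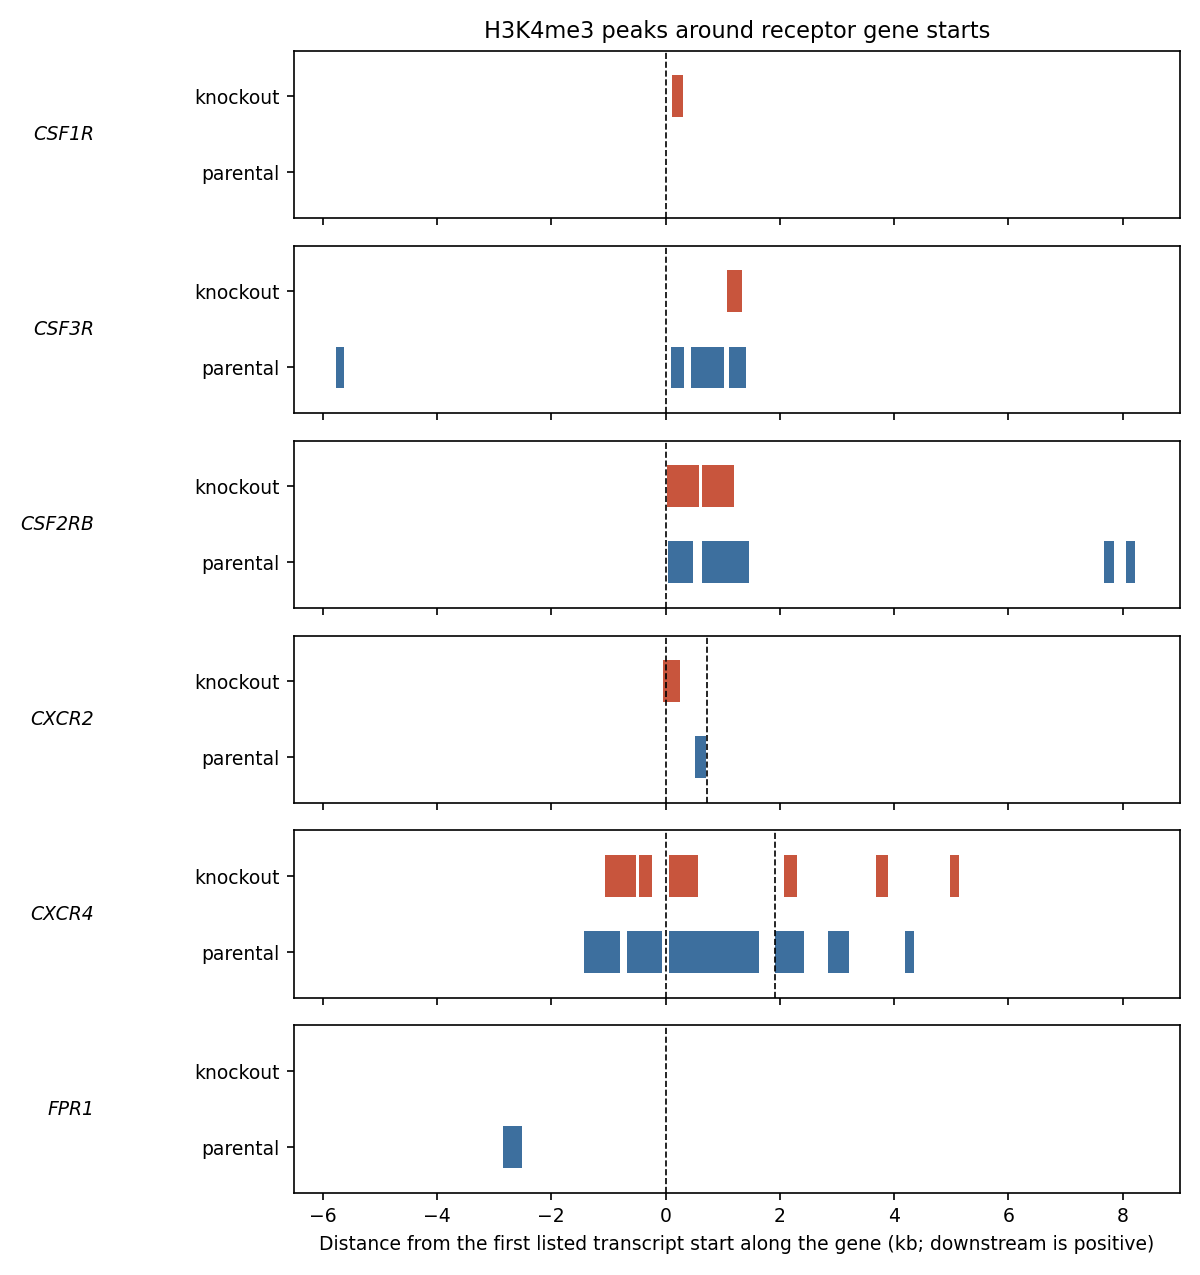
H3K4me3 peaks of the 6 receptors in knockout (red, upper row) and parental (blue, lower row) cells, drawn as bars by distance in kb from the first listed transcript start along the gene; dashed lines mark the listed starts. CXCR4 and CSF2RB carry peaks in both genotypes just downstream of a start, CSF1R a single knockout peak and FPR1 a single parental peak; the CSF3R peaks 19347 bp downstream in knockout cells and 19420 bp in parental cells lie outside the axis.

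The receptors together had 12 H3K4me3 peaks of 4376 bp in the knockout list and 17 peaks of 8060 bp in the parental list. That is 0.706 times as many peaks (Wilson-based 95% interval 0.343 to 1.45, counting error only), against 0.745 times over the whole lists. The median receptor peak was 269.5 bp wide in knockout cells and 362 bp wide in parental cells, close to the medians of 260 bp in the whole knockout list and 359 bp in the whole parental list. Of the knockout peaks, 8 of 12 (66.7%, 39.1 to 86.2) overlapped a parental peak by at least 1 bp, where 88.7% of all knockout peaks did. Of the parental peaks, 8 of 17 (47.1%, 26.2 to 69.0) overlapped a knockout peak, where 52.6% of all parental peaks did. At least 50% of the peak was covered for 8 of the 12 knockout peaks (66.7%, against 81.7% of all) and for 5 of the 17 parental peaks (29.4%, against 29.8%). Peaks of 1 gene are neighbours and not independent draws, so these shares describe 6 loci. The 4 genes listed in both genotypes had a median log2 width ratio (knockout over parental, of the summed width of their peaks) of -0.78, against -1.03 over the 13433 genes listed in both.

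**Figure D2:**
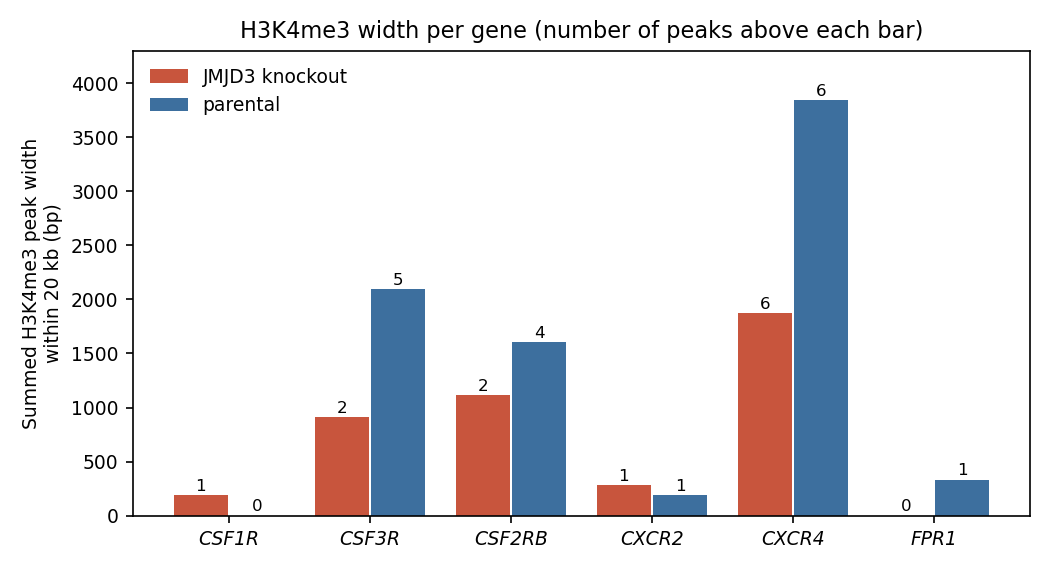
Summed width in bp of H3K4me3 peaks centred within 20 kb of a listed start, for each receptor in knockout (red, left) and parental (blue, right) cells, with the number of peaks above each bar. CXCR4 is the widest in both genotypes, at 1875 bp in knockout and 3845 bp in parental cells.

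CXCR4 carried the widest H3K4me3 of the 6 genes in both genotypes. It had 6 peaks of 1875 bp in the knockout list and 6 peaks of 3845 bp in the parental list, a log2 ratio of -1.04. That is at the middle of all genes listed in both genotypes, of which 49.7% had a lower ratio. In parental cells CXCR4 was wider than 86.9% of the genes with H3K4me3, and in knockout cells wider than 83.0%.

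The peak pair that differed most in width at CXCR4 lay just downstream of its upstream start. On hg19 the gene, on the minus strand of chromosome 2, has listed starts at 136875725 (NM_003467) and 136873813 (NM_001008540). Just downstream of the upstream start, the knockout peak ran from 136875162 to 136875662 and was 501 bp wide, and the parental peak ran from 136874089 to 136875670 and was 1582 bp wide. The knockout peak lay wholly inside the parental one and covered 31.7% of it. The peaks on either side of the second start accordingly left a gap of 1504 bp in knockout cells and 278 bp in parental cells.

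No peak covered either CXCR4 start itself. The 2 peaks that flank the upstream start left a gap of 294 bp in knockout cells and 124 bp in parental cells. Upstream of it, knockout peaks covered 717 of the first 1000 bp and parental peaks 812; in the 250 bp next to the start, knockout peaks covered 19 bp and parental peaks 181 bp. The knockout list also held 2 narrow peaks in the downstream part, of 200 and 162 bp, that no parental peak overlapped, and the parental list held 2 there, of 362 and 159 bp, that no knockout peak overlapped. The nearest peaks of the 2 genotypes at these places were 302 to 628 bp apart.

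CSF2RB had its H3K4me3 at the start in both genotypes. The gene lies on chromosome 22 with its start at 37309675 (NM_000395). The knockout list gave 2 peaks, 560 bp wide from 37309696 to 37310255 and 556 bp wide from 37310318 to 37310873. The parental list gave 2 peaks at the same places, 439 bp wide from 37309709 to 37310147 and 826 bp wide from 37310310 to 37311135. The first peak was thus the wider one in knockout cells and the second in parental cells, and the knockout peaks together covered 917 of the 1000 bp downstream of the start against 804 in parental cells.

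The parental list held 2 further CSF2RB peaks inside the gene, 177 and 160 bp wide and 7762 and 8145 bp downstream of the start, and the knockout list held none there. They bring the summed width to 1116 bp in knockout cells and 1602 bp in parental cells, a log2 ratio of -0.52; 82.1% of genes had a lower one. Within 5 kb of the start the widths were 1116 bp in knockout and 1265 bp in parental cells (-0.18). With peak centres at most 1 kb away the order turned round, with 1116 bp in knockout and 439 bp in parental cells (1.35), because the centre of the second parental peak lay 1048 bp from the start and that of the second knockout peak 921 bp.

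CSF3R had H3K4me3 inside the gene in both genotypes, while the peaks next to its start were listed in parental cells alone. The start lies at 36948915 on chromosome 1, minus strand, and is shared by the 3 listed transcripts. The knockout list held 1 peak near it, 255 bp wide and centred 1206 bp downstream. The parental list held 3 peaks downstream, 225, 578 and 287 bp wide and centred 202, 741 and 1261 bp from the start, and another of 149 bp at 5695 bp upstream. The knockout peak overlapped the parental peak at 1261 bp. In the first 1000 bp downstream of the start 0 bp were covered in knockout cells and 773 bp in parental cells.

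A further CSF3R peak belongs by distance to the neighbour MRPS15, which encodes a mitochondrial ribosomal protein. It was 658 bp wide in knockout and 853 bp wide in parental cells and was centred 472 bp from the MRPS15 start in knockout and 545 bp from it in parental cells. Its distance from CSF3R, 19347 bp in knockout and 19420 bp in parental cells, is just inside the 20 kb limit of the lists; the next listed peak beyond the limit lay at 25101 bp in knockout and 81579 bp in parental cells. With this peak CSF3R had 913 bp in knockout and 2092 bp in parental cells, a log2 ratio of -1.20. When each peak counted for its nearest gene only, the widths were 255 bp in knockout and 1239 bp in parental cells, and the ratio was -2.28.

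CXCR2 had 1 narrow peak in each genotype, at different places. The gene, on the plus strand of chromosome 2, has listed starts at 218990013 (NM_001168298) and 218990736 (NM_001557). The knockout peak, 284 bp wide from 218989973 to 218990256, lay over the first of these starts. The parental peak, 189 bp wide from 218990525 to 218990713, ended 23 bp short of the second. The 2 peaks did not overlap and stood 268 bp apart. CXCR2 was therefore the only one of the 4 receptors listed in both genotypes with a wider region in knockout cells (log2 ratio 0.59); 3.88% of all genes listed in both were wider in knockout cells by any amount, and 0.395% at least 2-fold. The parental peak was among the narrow ones of its list, wider than 18.8% of its peaks. In lists of equal length, for which the narrowest parental peaks were left out, it was not listed.

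CSF1R had 1 H3K4me3 peak, in knockout cells. It ran from 149465897 to 149466084 on chromosome 5, was 188 bp wide and was centred 213 bp downstream of the start at 149466203 of the 2 listed transcripts (NM_001288705 and NR_109969) on the minus strand. The nearest parental peak centre to this start lay 56718 bp away, in a peak listed for PDGFRB, the neighbouring gene for a platelet-derived growth factor receptor. The CSF1R peak was wider than 26.1% of the knockout peaks. Of all knockout peaks of at most 200 bp, 21.5% had no parental overlap. With peaks of at least 300 bp CSF1R was unlisted in both genotypes.

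FPR1 had 1 H3K4me3 peak, in parental cells. It was 332 bp wide, from 52257656 to 52257987 on chromosome 19, and its centre lay 2671 bp upstream of the start at 52255150, so it was not at the start itself. The same peak is listed for FPR2, a related formyl peptide receptor gene, at 6631 bp. The nearest knockout peak centre lay 47258 bp away, in a peak listed for SPACA6P and neighbouring non-coding genes. Of all parental peaks 301 to 500 bp wide, 49.6% had no knockout overlap. Within 1 kb of the start FPR1 was unlisted in both genotypes.

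**Figure D3:**
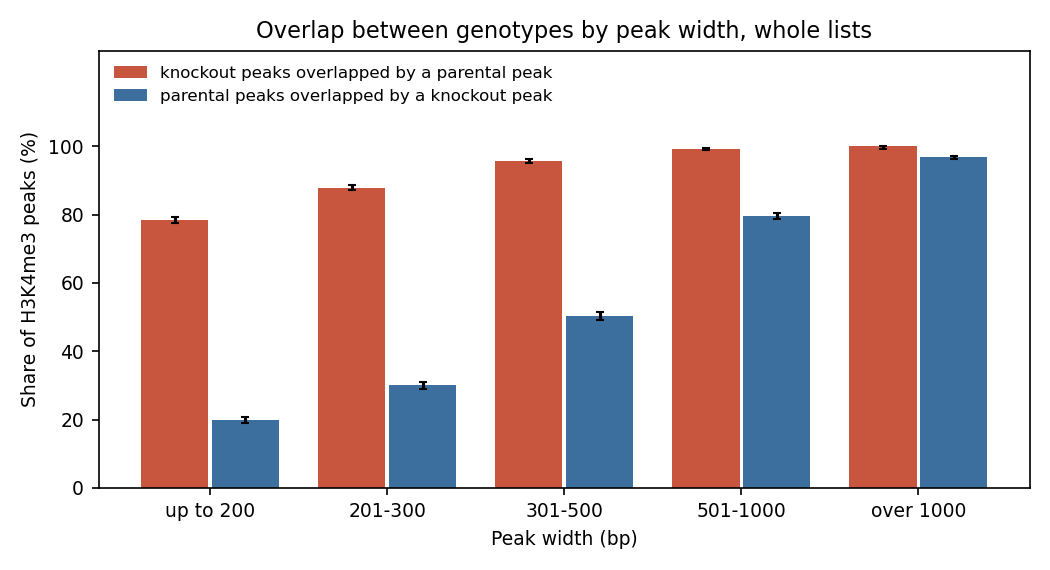
Share of all H3K4me3 peaks in a width class (bp) that overlap a peak of the other genotype, for knockout peaks (red, left) and parental peaks (blue, right), with Wilson 95% intervals. Among peaks of at most 200 bp 78.5% of knockout and 19.8% of parental peaks overlapped, and above 1000 bp 100% of knockout and 96.8% of parental peaks.

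The receptor peaks that only 1 list held were mostly narrow. Without a counterpart were the knockout peaks of CSF1R (188 bp), CXCR2 (284 bp) and CXCR4 (200 and 162 bp). Among parental peaks they were those of FPR1 (332 bp) and CXCR2 (189 bp), 2 of CXCR4 (362 and 159 bp), 2 of CSF2RB (177 and 160 bp) and 3 of CSF3R (578, 225 and 149 bp). The CSF3R peak of 578 bp was the widest of them; of all parental peaks 501 to 1000 bp wide, 20.3% had no knockout overlap. When only peaks of at least 300 bp were kept in both lists, all 5 receptor peaks left in the knockout list overlapped a parental peak. Of the 10 left in the parental list, 6 overlapped a knockout peak. Over the whole lists, 95.8% of knockout peaks above 300 and up to 500 bp wide overlapped a parental peak, and 99.4% of those above 500 and up to 1000 bp. For parental peaks these shares were 50.4% and 79.7%, and 96.8% above 1000 bp. The whole-list shares also count overlaps with narrower peaks of the other list, which the receptor counts leave out.

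**Figure D4:**
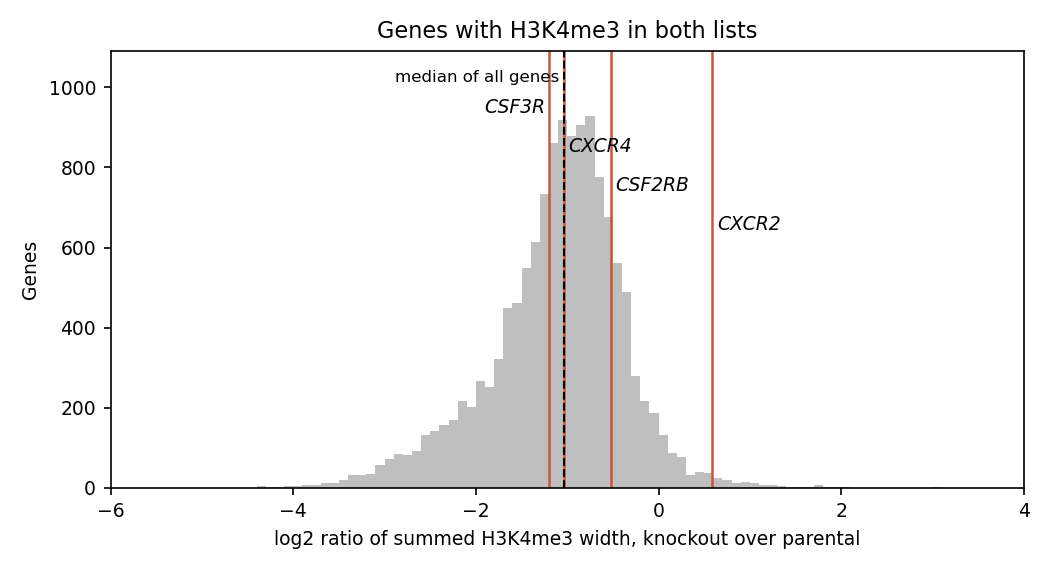
Histogram of the log2 ratio of summed H3K4me3 width, knockout over parental, for the 13433 genes listed in both genotypes, with the median of all genes (dashed, -1.03) and the 4 receptors listed in both (red lines). CXCR4 (-1.04) sits near the median, CSF2RB (-0.52) above it and CXCR2 (0.59) in the upper tail; CSF3R is drawn at -1.20 with the peak next to MRPS15 and would lie at -2.28 without it.

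By size of the ratio the receptors were ordered CXCR2 (0.59), CSF2RB (-0.52), CXCR4 (-1.04) and CSF3R (-1.20). CXCR4 and CSF3R were at least 2-fold narrower in knockout cells, as were 52.2% of all genes listed in both genotypes. The chromosome around each receptor gives a local scale: within 1 Mb on either side of the start, the summed H3K4me3 width, the receptor's own peaks included, had log2 ratios of -1.07 for CXCR4, -1.18 for CSF3R, -1.01 for CSF2RB and -0.96 for CXCR2. It was -1.06 around CSF1R and -0.72 around FPR1, and -1.08 over the whole lists. CXCR4 was thus close to its surroundings, and CSF2RB and CXCR2 had higher ratios than theirs. CSF3R was close to its surroundings only with the peak next to MRPS15; without it, its ratio was -2.28, below theirs.

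The receptor peaks centred within 1 kb of a start were 8 of 12 in knockout cells and 7 of 17 in parental cells. A peak centre lay within 1 kb of 6 of the 8 listed starts in each genotype. The listed starts are only those with a peak within 20 kb in some list, so starts without one are not counted. The start base itself was covered in 1 of these 6 in knockout cells, the first CXCR2 start, and in 0 of 6 in parental cells. Over all starts with such a peak and a known strand, the start base was covered at 9.4% in knockout cells and 23.5% in parental cells. H3K4me3 covered more of the 1000 bp downstream than of the 1000 bp upstream at the starts of CSF1R (knockout), CSF3R (parental) and CSF2RB (both), as it did over all starts, with medians of 389.5 bp downstream and 162 bp upstream in knockout cells, and 720 bp downstream and 368 bp upstream in parental cells. So did the first CXCR2 start, with 244 bp downstream and 40 bp upstream in knockout cells, and 189 bp downstream and 0 bp upstream in parental cells. The same peaks lay upstream of the second CXCR2 start, with 284 bp in knockout and 189 bp in parental cells and 0 bp downstream in both. At the second CXCR4 start, knockout peaks covered 232 bp downstream and 0 bp upstream, and parental peaks 569 bp downstream and 725 bp upstream. At the upstream CXCR4 start the order differed between genotypes, with 501 bp downstream and 717 bp upstream in knockout cells, and 945 bp downstream and 812 bp upstream in parental cells.

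The CpG content of the promoter went with the width of H3K4me3 across genes that had a promoter entry and a line in at least 1 of the 4 lists. Genes with no line in any list were left out, so the shares below are higher than they would be over all genes. Of genes with at most 4 CpGs in their richest listed promoter, 40.6% had an H3K4me3 peak within 20 kb in knockout and 53.9% in parental cells, and those listed had median widths of 692 bp in knockout and 1041 bp in parental cells. With 20 or more CpGs, 85.7% had a peak in knockout and 94.0% in parental cells, with median widths of 1000 bp in knockout and 1942 bp in parental cells. With 10 to 19 CpGs the median widths were 950 bp in knockout and 1794.5 bp in parental cells. With 5 to 9, 64.2% had a peak in knockout and 80.0% in parental cells, with median widths of 863 bp in knockout and 1451 bp in parental cells. CXCR4 is in the class of 20 or more and was the widest receptor. CSF1R, CSF3R and CXCR2 have their richest promoter between 5 and 9 CpGs, and FPR1 has at most 4. Within the class of 5 to 9, CSF1R had 188 bp in knockout and 0 bp in parental cells, and CSF3R 913 bp in knockout and 2092 bp in parental cells. The median log2 ratio differed little between these classes, at -0.97 with at most 4 CpGs and -1.04 with 20 or more.

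No H3K27me3 peak was listed near the receptors. This does not show that the mark was absent, since the lists hold called peaks only. The closest listed H3K27me3 peak centre to a CXCR2 start lay 83.4 kb away in knockout cells, in a peak listed for RUFY4, and 357 kb away in parental cells. For CSF2RB it lay 195 kb away in knockout and 1931 kb in parental cells, and for the other receptors at least 610.8 kb away in both genotypes. The lists hold only peaks within 20 kb of some transcript start, so peaks far from all genes could not be seen.

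Other cytokine receptors were listed about as often in both genotypes. Of 17 other cytokine receptor genes, 12 had an H3K4me3 peak within 20 kb in knockout and 12 in parental cells, 11 of them in both, with a median log2 ratio of -0.84. As a scale for this group and those below, 13665 of the 18086 symbols found in any list had such a peak in knockout cells. In parental cells 15382 had one. When a peak counted for its nearest gene only, 10315 had one in both genotypes. The groups may also hold genes with no line in any list, which the 18086 leave out. By summed width in both genotypes, the widest were TNFRSF1A, a tumour necrosis factor receptor (3542 bp in knockout and 6321 bp in parental cells), IL6R, the IL-6 receptor (2609 bp in knockout and 4083 bp in parental cells), and IFNGR2, a chain of the interferon gamma receptor (1484 bp in knockout and 4183 bp in parental cells). IL1R2, a decoy receptor for IL-1, was listed in knockout cells only, with 3 peaks of 558 bp, the nearest 18774 bp from its start. All 3 were nearer to another gene. IL1R1, the signalling receptor for IL-1, was listed in parental cells only, with 165 bp at 6218 bp. By nearest gene only, 11 of the 17 were listed in knockout and 12 in parental cells.

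Of 18 other chemoattractant receptor genes, 7 were listed in knockout and 9 in parental cells, with a median log2 ratio of -0.53 over the 7 in both. Many of them stand close to other genes: when a peak counted for its nearest gene only, 6 were listed in knockout and 7 in parental cells. C3AR1, the receptor for complement C3a, had 1560 bp in knockout and 5436 bp in parental cells, C5AR2, a second C5a receptor, 645 bp in knockout and 2055 bp in parental cells, and LTB4R, a leukotriene B4 receptor, 1319 bp in knockout and 1827 bp in parental cells. All LTB4R peaks were nearer to another gene, the closest centred 11087 bp away in knockout and 10227 bp in parental cells. C3AR1 was the nearest gene of 3 of its 7 knockout peaks and 8 of its 13 parental peaks. C5AR2 was the nearest gene of 1 of its 2 knockout peaks and 3 of its 4 parental peaks. C5AR1, the C5a receptor, was listed in parental cells only (147 bp at 227 bp from its start), as was FPR2, through the peak it shares with FPR1. CXCR1, the close relative of CXCR2, had no line in any list.

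The ligands were mostly unlisted. Of 15 ligand genes, 4 had H3K4me3 in knockout and 5 in parental cells. CXCL8, the main ligand of CXCR2, had 640 bp in knockout and 2972 bp in parental cells (log2 ratio -2.22), and ANXA1, whose product acts on formyl peptide receptors, had 1701 bp in knockout and 2248 bp in parental cells (-0.40). IL5, an eosinophil growth factor, had 395 bp in knockout and 903 bp in parental cells, with no peak nearer to it than to another gene. CXCL3, a ligand of CXCR2, was listed in parental cells only, with 214 bp centred 64 bp from its start. CXCL12, the ligand of CXCR4, had no H3K4me3 peak. It was the only gene of the groups described here with an H3K27me3 peak listed, 340 bp in knockout and 632 bp in parental cells. CSF1, CSF2, CSF3 and IL3 had no line in any list.

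All 26 signalling partners of these receptors had H3K4me3 in both genotypes, with a median log2 ratio of -1.03, the same as over all genes. Of the 18086 symbols found in any list, 13433 had H3K4me3 in both, and 10315 did when a peak counted for its nearest gene only. When a peak counted for its nearest gene only, 24 of the 26 were listed in each genotype, and SHC1 was the nearest gene of 1 of its 11 knockout peaks and 3 of its 13 parental peaks. PTPN6 was the nearest gene of 4 of its 13 knockout peaks and 4 of its 12 parental peaks. By the sum over both genotypes, the widest were SHC1, an adaptor of growth factor receptors (6106 bp in knockout and 9455 bp in parental cells), PTPN6, a phosphatase that restrains cytokine receptors (4428 bp in knockout and 7730 bp in parental cells), and GRK2, a kinase that desensitises chemokine receptors (3600 bp in knockout and 5402 bp in parental cells). Of the 26, 14 were at least 2-fold narrower in knockout cells, close to the share of 52.2% among all genes listed in both genotypes. Of 8 regulators of myeloid genes, 7 were listed in both genotypes (median -0.96), the widest by the sum over both genotypes being the transcription factors RUNX1 (4718 bp in knockout and 9173 bp in parental cells), GFI1 (3470 bp in knockout and 7782 bp in parental cells) and MYB (3611 bp in knockout and 7243 bp in parental cells).

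**Figure D5:**
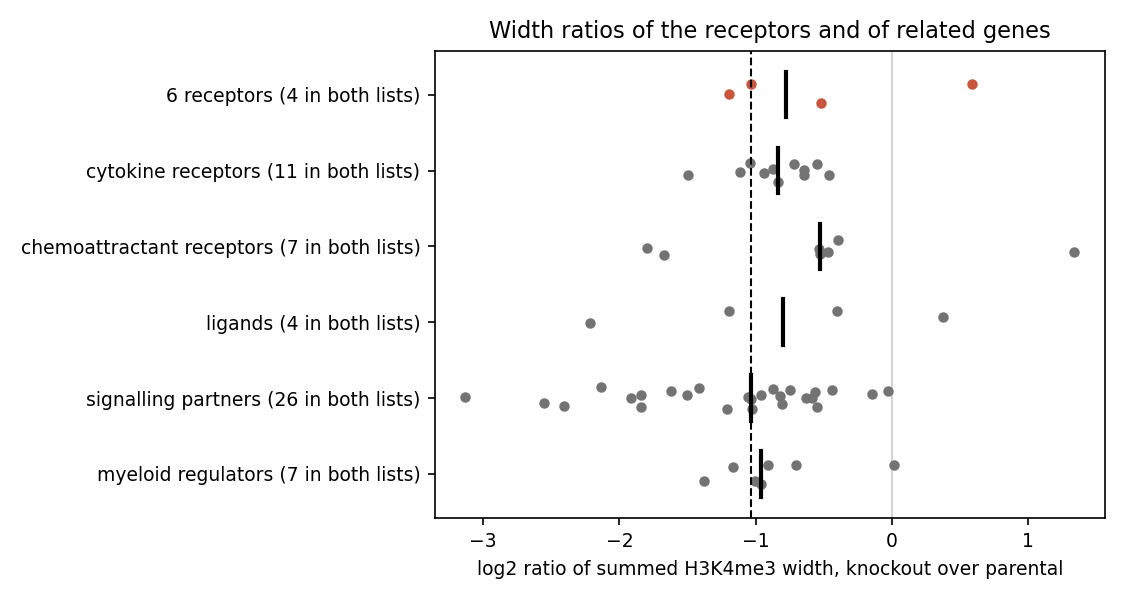
Log2 ratio of summed H3K4me3 width, knockout over parental, for each gene listed in both genotypes among the 6 receptors (red) and the related groups (grey); black bars are group medians and the dashed line is the median of all genes, -1.03. The receptors spread from -1.20 to 0.59, the signalling partners from -3.13 to -0.03.

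The genes of these groups whose widths were most like each receptor's were found by the distance between log2 values of the summed width plus 100 bp over the 4 libraries. For CXCR4 they were GRB2, an adaptor (1811 bp in knockout and 3719 bp in parental cells), and GRK6, a receptor kinase, and for CSF2RB they were STAT3, a transcription factor (1171 bp in knockout and 1736 bp in parental cells), and IFNGR1, a chain of the interferon gamma receptor. For CSF3R they were IL5RA, the alpha chain of the IL-5 receptor, and SOCS1, an inhibitor of cytokine signalling. For CXCR2 they were CXCL1, one of its ligands, and CXCR3, a chemokine receptor of T cells. FPR1 was matched exactly by FPR2, which shares its only peak, and then by CXCL3. CSF1R was nearest to IL1R2 and CXCL1, at distances of 1.19 and 1.30, farther than any other pair named here. As the H3K27me3 widths are 0 for all of these genes, the likeness rests on 2 values.

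Across the libraries, the H3K4me3 lists held 24943 peaks in knockout and 33470 in parental cells, and the H3K27me3 lists 3234 in knockout and 3578 in parental cells. KDM6B itself had 6 H3K4me3 peaks of 1072 bp in knockout and 17 of 6321 bp in parental cells (log2 ratio -2.56), which does not check the knockout, since a mark does not show a coding change. The 8 promyelocyte markers were MPO, ELANE, PRTN3, AZU1, CTSG, CD33, SPI1 and MYB. SPI1 and MYB are also among the regulators above. Of the 8 markers, 7 had H3K4me3 within 20 kb in knockout cells (CTSG, cathepsin G, did not) and 8 in parental cells. T cell markers were listed at 3 of 5 in each genotype, B cell markers at 2 of 5 in knockout and 3 of 5 in parental cells, and erythroid markers at 2 of 5 in each. When a peak counted for its nearest gene only, promyelocyte markers were listed at 5 of 8 in knockout and 6 of 8 in parental cells. The others were listed at 1 of 5 in each genotype for T cells, 2 of 5 in knockout and 3 of 5 in parental cells for B cells, and 1 of 5 in each for erythroid cells. By the same rule, 10315 of the 18086 symbols found in any list had H3K4me3 in both genotypes.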

How the data were processed

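Per the labels' protocols, chromatin from sonicated nuclei was pulled down with antibody and sequenced with Illumina's Genome Analyzer. BWA 0.7.10, SAMtools, MACS2 2.1.1 and the hg19 build are named in the submitters' processing notes. Settings and the use of the 2 input libraries, which were not analysed here, are not given in the sources used here. Of the H3K27me3 libraries the title names H3K27me3 and the antibody label H3K4me3; the title was followed.

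Per the file headers, each deposited line joins a peak to a RefSeq transcript, with a distance and a score. The deposited score could be computed from the distance and adds nothing to it, so it was not used. Starts were read as counted from 0, which no source states; printed positions count from 1. Distinct peaks centred within 20 kb were counted and their widths summed per gene (Python 3.11.15, pandas 2.3.3, scipy 1.17.1), after the functions were tested on simulated data. Width is the extent of a called region, not an amount of mark. Strand came from the RefSeq promoter table and, for CSF2RB, from general knowledge. Each list is 1 library, so no test was made, and Wilson 95% intervals cover counting error only. Named genes are the receptors, KDM6B, the promyelocyte markers and genes sharing a receptor peak. Of each related group they are the 3 widest, those listed in 1 genotype, those with H3K27me3 and those most like a receptor. Receptors, groups and motifs were chosen with earlier results of these data known.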

Additional observations from a re-analysis of the deposited data

How the results depend on the processing

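Windows of 10, 5 and 1 kb, nearest gene only, peaks of at least 300 bp, lists of equal length and, for the overlaps, 50% coverage were tried. Of 64 H3K4me3 values, 51 moved by less than 1.5 times or stayed within the interval of the main value. Some of them could not move: the only peaks of CSF1R and CXCR2 lay within 1 kb of a start, so no window changed them. For single receptors the value was the width difference. That of CSF3R counted as unmoved by nearest gene, at -984 bp in place of -1179 bp, although its log2 ratio changed from -1.20 to -2.28. The H3K27me3 values were 0 and could only stay 0, since every alternative removes peaks. The ratio of receptor peak counts, knockout over parental, was 1.14 within 1 kb and 1.0 in lists of equal length in place of 0.706, inside its wide interval but no longer below 1. In lists of equal length the ratio over the whole lists is also 1, by construction. Within 1 kb the median log2 width ratio was 0.59 in place of -0.78, over 3 receptors in place of 4, and CSF2RB had a difference of 677 bp, knockout minus parental, in place of -486 bp. The CSF2RB difference follows from peak centres just inside and outside 1 kb. The median changed through CSF2RB and also through the loss of CSF3R, which had 0 bp in knockout and 803 bp in parental cells within 1 kb. The 3 values left were 1.35 for CSF2RB, 0.59 for CXCR2 and -0.83 for CXCR4. With peaks of at least 300 bp, 3 receptors were listed in knockout cells in place of 5. Of the remaining knockout peaks, 100% (5 of 5) overlapped a parental peak in place of 66.7%, and 6 of 10 parental peaks overlapped a knockout peak in place of 47.1%. Over the whole lists, at least 95.8% of knockout peaks in each width class above 300 bp overlapped a peak of any width. For parental peaks the shares ran from 50.4% above 300 and up to 500 bp to 96.8% above 1000 bp. The log2 ratio of CSF3R was -2.28 within 10 kb or by nearest gene and -2.10 within 5 kb, in place of -1.20. No paired analysis was possible because each genotype has 1 library per mark. The lists give no depth, so its part in the peaks listed in 1 genotype only was not tested.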
